A study of Homo sapiens with 6 samples.

Results

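Solute carriers are the membrane proteins, named SLC plus a family number, that move amino acids, sugars, metals, nucleosides and other small solutes across the plasma membrane, mitochondria, lysosomes and Golgi. The set described here holds the genes of that name whose mean probe intensity reached 200 in at least 1 of 3 groups of THP-1 cells. The members were thus chosen by their group means. Where a gene had several probes, the brightest one on average stood for it, and 11 carriers with well-known roles in glucose, lactate, cystine, iron and zinc handling were left out by name. Of 358 such genes on the platform, 191 lay under the threshold, and 156 were members, of 18255 genes with a symbol in all. The names of 5 members (SLC2A4RG, SLC4A1AP, SLC7A6OS, SLC25A3P1 and NHERF1, listed on the platform as SLC9A3R1) stand for genes that encode no transporter. The other 151 were placed in 12 substrate classes by family, with some genes placed singly. One of these 151, SLC26A10P in the ion class, is also a pseudogene.

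THP-1 is a human monocytic leukaemia line. All cells were kept in medium with 0.5% serum, and RNA was taken from 2 single-colour arrays in each of 3 groups. Resting cells received no agent, LPS cells received the bacterial cell wall component lipopolysaccharide at 50 ng/ml for 8 hours, and LC53 plus LPS cells received the compound LC53 at 5 µM for 15 minutes before the same LPS stimulus. No array was made of cells given LC53 alone, so its comparisons are with LPS and with resting cells.

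Carriers differ in direction and in driving force. Some exchange one solute for another, some follow a gradient passively, and some are driven by sodium or protons. In monocytes and macrophages, which meet bacterial products, they feed the amino acids, sugars and metals that the activated cell uses, and others empty the lysosome of the products of digestion. The names say little about the substrate, and several families hold members with none assigned.

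The middle value of each array ran from 84.4 (LPS replicate 1) to 124.0 (LPS replicate 2), with the other 4 arrays between 99.2 and 112.7. Of the 156 members, 144 were brighter on LPS replicate 2 than on LPS replicate 1. Monocyte markers were present on all arrays, with SPI1 and PTPRC called higher with LPS than at rest and CSF1R called lower with LC53 plus LPS than with LPS. The summed markers of fibroblasts were 489.9 and 496 in resting cells, 705 and 927 in LPS cells, and 568 and 598 in LC53 plus LPS cells. Of these markers, COL3A1 and COL1A2 were at or under 3.12 and 17.3 on every array, COL1A1 read between 272 and 461, and DCN and LUM rose with LPS. The summed epithelial markers were 95.2 and 138 at rest, 114 and 118 with LPS, and 275 and 285 with LC53 plus LPS, where EPCAM read 147 and 174 against at most 40.4 on the other arrays. The part of these markers in the results below was not tested. Differences are given on the log2 scale and were called where limma's Benjamini-Hochberg adjusted p over 31741 probes was under 0.05. Because group means chose the members, all counts are descriptions. An adjusted p is printed only for the 147 members whose mean over all 6 arrays was at least 200. Of these, 12 were under 200 in at least 1 group, and SLC10A5 and SLC10A4 reached 200 in a single group, so no p is read for them.

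In LPS cells the amino acid carriers SLC43A2, SLC15A3, SLC1A3 and SLC6A6, the copper carrier SLC31A2 and the mitochondrial glutathione carrier SLC25A40 rose. Among those that fell were the amino acid carriers SLC1A1 and SLC1A4, the sialic acid exporter SLC17A5 and the zinc importers SLC39A3 and SLC39A10. The citrate carrier SLC25A1 and the nucleoside carrier SLC29A1 also fell. Of the 147 tested members, 6 were called higher (4.08%) and 11 lower (7.48%) in LPS against resting cells. Among all 9107 genes with a mean of 200 or more, 6.01% were called higher and 4.26% lower. The 2 LPS arrays lay above both resting arrays for 36 of the 147 members and below them for 66 of the 147, against 27.9% and 35.3% of those genes. The median log2 difference was -0.16 over the members and -0.05 over those genes. The split of calls turned on single arrays: it was 7 higher and 4 lower without LPS replicate 1, 4 and 16 without LPS replicate 2, 2 and 0 without either resting array, and 4 and 2 without either LC53 plus LPS array or in a fit of only the 2 groups. The calls fell in 6 transporter classes and in 1 gene with no transport function. Of the 17, 7 were in the amino acid and peptide class, the largest, with 30 of the 147 tested members.

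**Figure D1:**
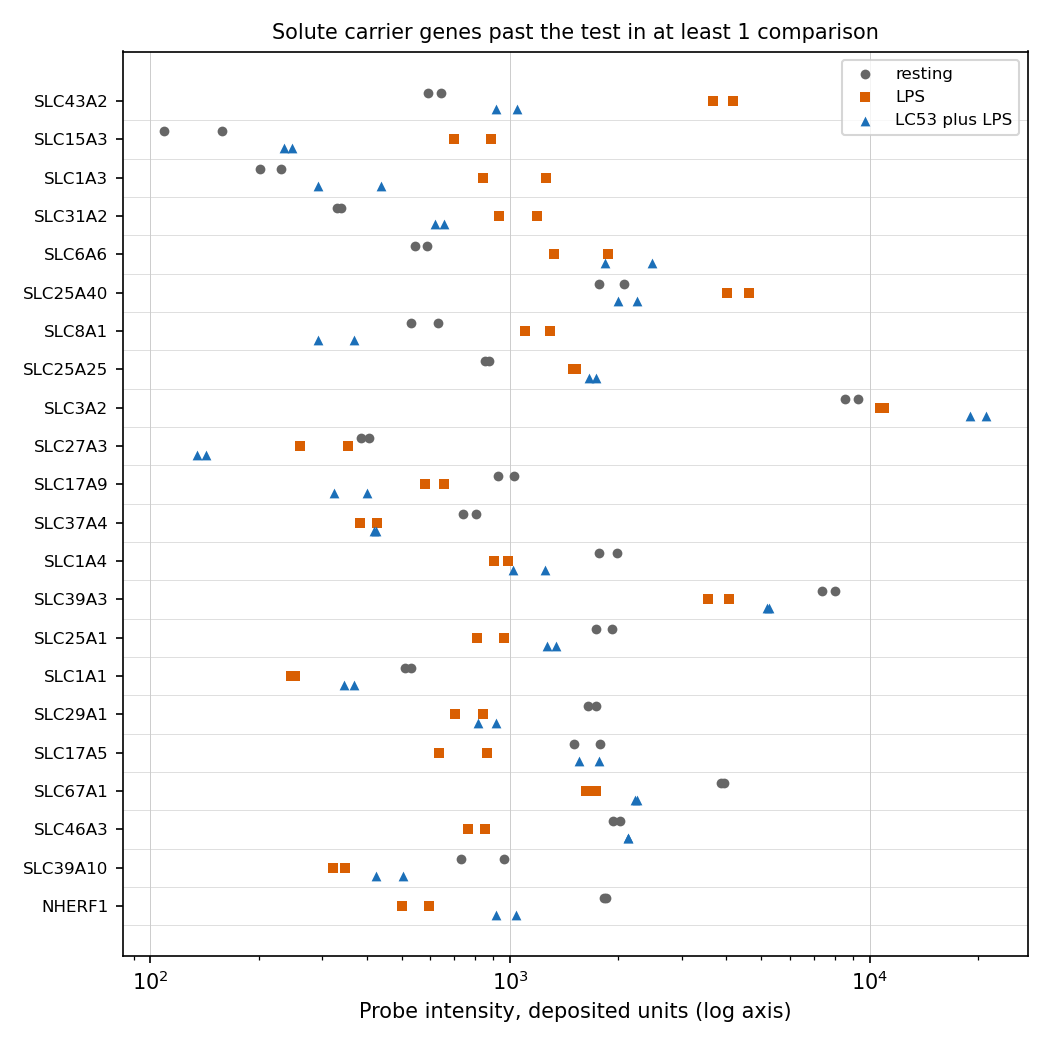
Probe intensity in deposited units (log axis) of the 22 solute carrier genes that passed the test in at least 1 comparison, ordered by the LPS minus resting difference. Each point is 1 array, with 2 for each group; SLC43A2 and SLC15A3 lie highest in LPS cells and between the other groups with LC53, whereas SLC46A3 is low in LPS cells and back near its resting values with LC53.

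SLC43A2, which carries large neutral amino acids such as leucine and phenylalanine, read 644 and 592 in resting cells, 3680.2 and 4165 in LPS cells, and 1044 and 917 in LC53 plus LPS cells. Each group lay apart from the other groups, with LPS cells on top. The mean was 618 ± 36.5 (SD, n = 2) at rest and 3923 ± 343 (SD, n = 2) with LPS, a log2 difference of 2.67 ± 0.19 (SE) with an adjusted p of 0.00168 in limma. SLC15A3, a lysosomal carrier of histidine and small peptides, read 109 and 158 at rest, 701 and 885 with LPS, and 248 and 235 with LC53 plus LPS. Its LPS arrays stood clear of all others, and the log2 difference from rest was 2.58 ± 0.25 (adjusted p 0.00471 in limma). The members most like SLC15A3 over the 6 arrays were SLC43A2, SLC25A40 and SLC39A6, with Pearson correlations of 0.979, 0.969 and 0.968, given as a description of arrays that share their groups.

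SLC1A3, the glutamate transporter EAAT1, read 231 and 202 at rest, 841 and 1257 with LPS, and 437 and 292 with LC53 plus LPS. Both LPS arrays lay above the others although they were far apart, and the log2 difference was 2.25 ± 0.30 (adjusted p 0.0124 in limma). A dimmer probe of SLC1A3, under 200 in each group, averaged 58.5 at rest and 145 with LPS. It also rose, by a log2 difference of 1.32 with an adjusted p of 0.0175 in limma. SLC6A6, the taurine transporter, read 588 and 545 at rest, 1327 and 1872 with LPS, and 2481 and 1841 with LC53 plus LPS. Resting cells lay below both stimulated groups, which overlapped, and the log2 difference of LPS from rest was 1.48 ± 0.26 (adjusted p 0.0301 in limma). The second brightest SLC6A6 probe gave 0.10 with an adjusted p of 0.858 in limma, so the probes of SLC6A6 did not all show the change. Another probe read 1.44, but it averaged only 4.00 at rest and 10.9 with LPS, too dim to weigh beside them.

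The called members of the amino acid and peptide class that fell with LPS were SLC17A5, SLC1A1 and SLC1A4. SLC17A5, the lysosomal exporter of sialic acid, read 1509 and 1785 at rest, 635 and 865 with LPS, and 1774 and 1552 with LC53 plus LPS. LPS cells lay below both other groups, which overlapped, and the log2 difference from rest was -1.15 ± 0.23 (adjusted p 0.0471 in limma). SLC1A1, the glutamate transporter EAAT3, fell from 512 and 530.5 to 246 and 253, the opposite direction to SLC1A3, and read 346 and 369 with LC53 plus LPS. The difference of -1.06 ± 0.17 had an adjusted p of 0.0238 in limma. SLC1A4, a carrier of small neutral amino acids, fell from 1768 and 1987 to 989.6 and 903, by 0.99 on the log2 scale (adjusted p 0.0472 in limma).

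The promoters of SLC43A2 and SLC1A3, which rose with LPS, and of SLC46A3, which fell, are shown to set those changes beside the DNA around their starts. Each is the RefSeq sequence of GRCh38.p14 from 250 bases before to 50 bases after the gene start, read 5′ to 3′ along the gene, and capitals mark matches of the motifs named after them. SLC43A2 lies at chr17:1604985-1605284 on the minus strand, SLC1A3 at chr5:36596338-36596637 on the plus strand, and SLC46A3, a lysosomal carrier described further on, at chr13:28718921-28719220 on the minus strand.
SLC43A2: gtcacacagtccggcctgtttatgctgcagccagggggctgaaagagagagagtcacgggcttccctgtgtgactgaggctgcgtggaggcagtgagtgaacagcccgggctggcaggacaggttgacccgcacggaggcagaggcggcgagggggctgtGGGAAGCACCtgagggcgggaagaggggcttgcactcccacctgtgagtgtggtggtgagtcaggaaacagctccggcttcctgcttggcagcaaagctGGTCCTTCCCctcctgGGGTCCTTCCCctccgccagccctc
SLC1A3: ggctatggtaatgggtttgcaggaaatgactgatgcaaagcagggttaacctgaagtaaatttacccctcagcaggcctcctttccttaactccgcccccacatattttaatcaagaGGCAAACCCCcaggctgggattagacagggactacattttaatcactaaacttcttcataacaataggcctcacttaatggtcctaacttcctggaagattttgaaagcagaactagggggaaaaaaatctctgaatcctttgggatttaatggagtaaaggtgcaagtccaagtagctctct
SLC46A3: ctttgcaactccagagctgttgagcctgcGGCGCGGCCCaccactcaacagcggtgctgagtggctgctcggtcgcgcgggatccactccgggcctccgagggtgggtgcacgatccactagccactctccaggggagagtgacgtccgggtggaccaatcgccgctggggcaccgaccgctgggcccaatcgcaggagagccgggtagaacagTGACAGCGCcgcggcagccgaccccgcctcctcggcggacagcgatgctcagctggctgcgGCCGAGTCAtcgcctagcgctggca
Both strands were searched for 3 motifs. The NF-kappa-B form was GGG, any 5 bases and CC. The interferon-response form was GAAA, any 2 bases and GAAA, and the antioxidant-response core was TGACNNNGC.

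The SLC43A2 window held 4 matches of the NF-kappa-B form, a pair of which overlapped on opposite strands. The SLC1A3 window held 1 match of it, and the SLC46A3 window held 1 of it and 2 of TGACNNNGC. Promoters were matched for 131 members. The NF-kappa-B form was found in 73.3% of them and in 58% of all 27305 promoters, TGACNNNGC in 19.8% and 13.6%, and the interferon-response form in 1.53% and 3.65%. Among 15 matched members called in the LPS or the LC53 comparison, the shares were 66.7%, 20% and 0% in the same order. A match is only a run of letters and says nothing of binding.

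Metal carriers moved both ways with LPS. SLC31A2, a copper transporter of late endosomes and lysosomes, rose from 330.2 and 339 to 934 and 1186, and read 655 and 618 with LC53 plus LPS. The 3 groups did not overlap, and the LPS difference was 1.65 ± 0.20 (adjusted p 0.00906 in limma). SLC31A1, the main copper importer, read 635 and 723 at rest and 921 and 1017 with LPS, which was not called (log2 difference 0.51, adjusted p 0.222 in limma). SLC39A10, a zinc importer, fell from 733 and 963 to 322 and 348, by 1.33 on the log2 scale (adjusted p 0.0258 in limma). SLC39A3, another zinc importer and the second brightest probe of the metal class, fell from 7372 and 8019.7 to 3549.9 and 4061, by 1.02 on the log2 scale (adjusted p 0.0321 in limma). A dimmer SLC39A3 probe, at 56.1 on average in resting cells, read -0.43 with an adjusted p of 0.663. The brightest probe of the class, for the zinc importer SLC39A1, read 5776 and 6171 at rest and 8749 and 7720.3 with LPS (log2 difference 0.46, adjusted p 0.273 in limma).

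Of 27 tested mitochondrial carriers, 1 rose and 1 fell. SLC25A40, which carries glutathione into mitochondria, read 1771 and 2077 at rest, 4011 and 4627 with LPS, and 2002 and 2249.5 with LC53 plus LPS. LPS cells lay above the overlapping other groups, with a difference of 1.17 ± 0.20 (adjusted p 0.0275 in limma). Its dimmer probe, at averages of only 14.9 at rest and 81.1 with LPS, gave 2.59 with an adjusted p of 0.159. SLC25A1, the citrate carrier that supplies acetyl units to the cytosol, fell from 1733 and 1926 to 812 and 963, by 1.05 on the log2 scale (adjusted p 0.0339 in limma), and read 1345 and 1264 with LC53 plus LPS. The iron carriers differed by 0.84 for SLC25A28 (adjusted p 0.0927) and by -0.15 for SLC25A37 (adjusted p 0.847). The brightest probes of the class were for the ADP/ATP carrier SLC25A6, saturated on 1 array, and the phosphate carrier SLC25A3, at -0.26 and -0.24 on the log2 scale, with adjusted p of 0.527 and 0.540 in limma.

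Nucleoside and sugar carriers gave 1 fall each. SLC29A1, the equilibrative nucleoside transporter ENT1, read 1651 and 1739.7 at rest, 703 and 842 with LPS, and 913 and 816 with LC53 plus LPS. Both stimulated groups lay below rest and overlapped, and the LPS difference was -1.14 ± 0.19 (adjusted p 0.0274 in limma). SLC43A3, a nucleobase carrier, read 809 and 1310.1 at rest and 1837 and 2506 with LPS, which was not called (1.06 ± 0.30, adjusted p 0.114 in limma). SLC37A4, the glucose 6-phosphate carrier of the endoplasmic reticulum, fell from 804 and 738 to 383 and 426 and stayed at 419 and 423 with LC53. Its LPS difference of -0.93 ± 0.18 had an adjusted p of 0.0398 in limma, and it is named after its values were seen. The fructose carrier SLC2A5, the brightest probe of the sugar class, read 7578 and 8186 at rest and 6261 and 6922 with LPS (-0.26, adjusted p 0.524).

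The remaining calls were falls of members with other substrates or none. SLC46A3, a lysosomal carrier, read 1937 and 2022 at rest and 764 and 853 with LPS, a difference of -1.29 ± 0.18 (adjusted p 0.0135 in limma). SLC67A1, listed on the platform as SLC22A18, fell from 3946 and 3853 to 1628 and 1734, by 1.21 on the log2 scale (adjusted p 0.0152 in limma), and read 2225 and 2256 with LC53 plus LPS. NHERF1, a scaffold that tethers membrane carriers and is itself no transporter, fell from 1853 and 1822 to 502 and 594. Its difference of -1.75 ± 0.19 (adjusted p 0.00675 in limma) was the largest fall among the tested members, and the LC53 plus LPS arrays lay between at 1041 and 915.

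Without 1 array, most of these calls were lost. SLC43A2 and SLC15A3 kept an adjusted p under 0.05 without each of the 6 arrays in turn. Without resting replicate 1 or 2 they were the 2 left of 17, and the highest adjusted p was 0.371 and 0.358. Without LPS replicate 1 or 2, 10 and 13 calls were kept (highest 0.0810 and 0.0706), and without either LC53 plus LPS array 6 were kept (highest 0.112). NHERF1 (0.0864 and 0.0794), SLC1A3 (0.0807 and 0.0985), SLC31A2 (0.108 and 0.0971) and SLC46A3 (0.152 and 0.162) were lost only without resting replicate 1 or 2. No called value changed sign, which could not occur here because the groups of each called pair did not overlap.

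**Figure D2:**
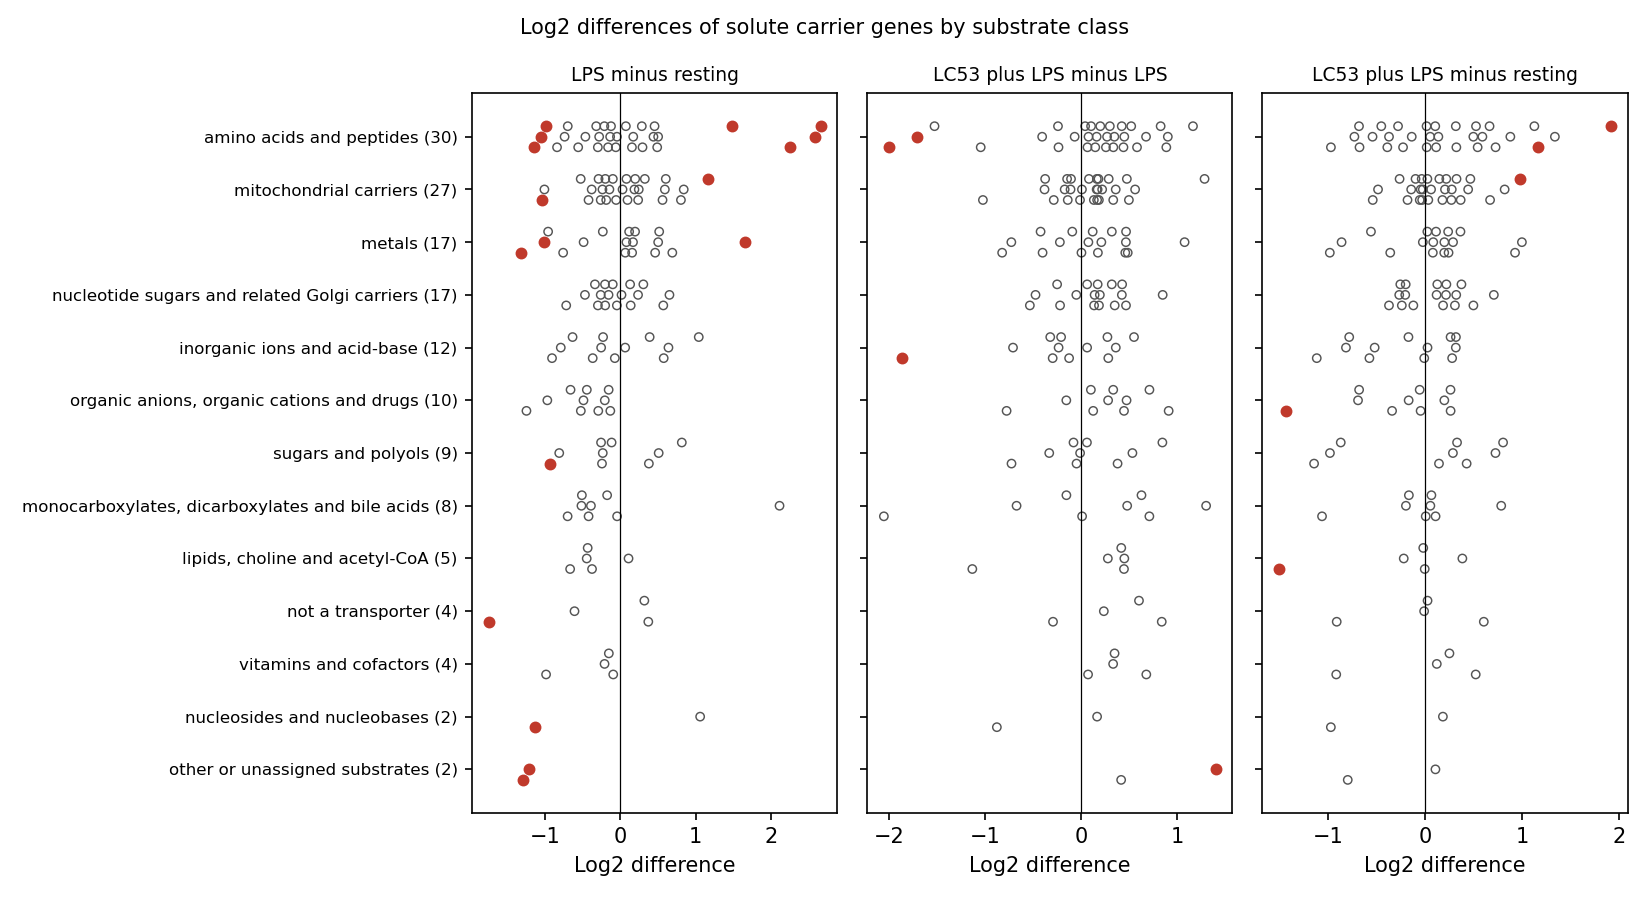
Log2 differences of the 147 tested members by substrate class in the 3 comparisons, with the number of tested members in brackets; each point is 1 gene and filled points passed the test. LPS minus resting holds 17 filled points, 7 of them in the amino acid and peptide class, the largest, with 30 tested members. The other comparisons hold 4 and 5.

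On the values as deposited, no member was called with LPS in 6 transporter classes, which had 56 tested members together. These were the Golgi carriers of nucleotide sugars, the inorganic ion, monocarboxylate and bile acid, lipid and choline, organic ion and vitamin classes. By limma's unadjusted p under 0.05, 3 of the 56 were higher and 10 lower. All genes were not counted at that cut, so this split cannot be set against them. All 17 Golgi carriers were tested, and their LPS differences ran from -0.72 to 0.65. The brightest, SLC35B1, an ATP/ADP exchanger of the endoplasmic reticulum, read 8623 and 7844 at rest and 6535 and 7805 with LPS. The probe of SLC35G3 may also detect near-identical copies of the gene, so its values of 4148 to 7069 are uncertain. The lactate carrier SLC16A1 read 2226 and 2726 at rest, 1933 and 2454 with LPS, and 2233 and 2152 with LC53 plus LPS (LPS difference -0.18, adjusted p 0.739 in limma). The riboflavin carrier SLC52A2, brightest of the vitamin class, read 21399 and 20586 at rest, 17806 and 19958 with LPS, and 31553 and 28783 with LC53 plus LPS. The vitamin carrier SLC5A6, which takes up biotin and pantothenate, read between 6244 and 7993 on all 6 arrays. The phosphate importer SLC20A1 read 2112 and 2092 at rest and 2956 and 3619 with LPS (0.64, adjusted p 0.131).

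Among the other brightest probes of these classes, the salt cotransporter SLC12A2 read 1213 and 1758 at rest, 1599 and 2283 with LPS, and 1423 and 2155 with LC53 plus LPS, so all its groups overlapped. SLC16A9 read 5040.4 and 4437 at rest, 3281 and 3953 with LPS, and 2467 and 2072 with LC53 plus LPS, lowest in the last group. The acetyl-CoA carrier SLC33A1 read 1764 and 2011 at rest and 2351 and 2569.8 with LC53 plus LPS, and the choline carrier SLC44A1 read 1655 and 1567 at rest and 771 and 1329.8 with LPS. SLC22A16, a carnitine carrier, read 1852 and 1832 at rest, 643 and 933 with LPS, and 1684 and 1255 with LC53 plus LPS. Its LPS arrays lay below all others, with a difference from rest of -1.25 ± 0.26 and an adjusted p of 0.0527 in limma, just short of the threshold. SLC22A16 was called lower by limma after cyclic loess (adjusted p 0.00825), median centring (0.0111) and quantile normalization (0.00617). SLC22A15, of the same family, read 1530.1 and 1519.8 at rest and 946 and 1184 with LPS. The sugar carrier SLC50A1 kept within 2633 to 3658 on all 6 arrays. SLC2A4RG, a transcription regulator, read 4667 and 4598 at rest and 2615 and 3515 with LPS, and SLC4A1AP, which encodes kanadaptin, 851 and 942 at rest and 1000.0 and 1338 with LPS. SLC16A6, SLC29A3, SLC46A1 and SLC48A1, carriers of ketone bodies, lysosomal nucleosides, folate and heme, stayed under the threshold in all groups.

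**Figure D3:**
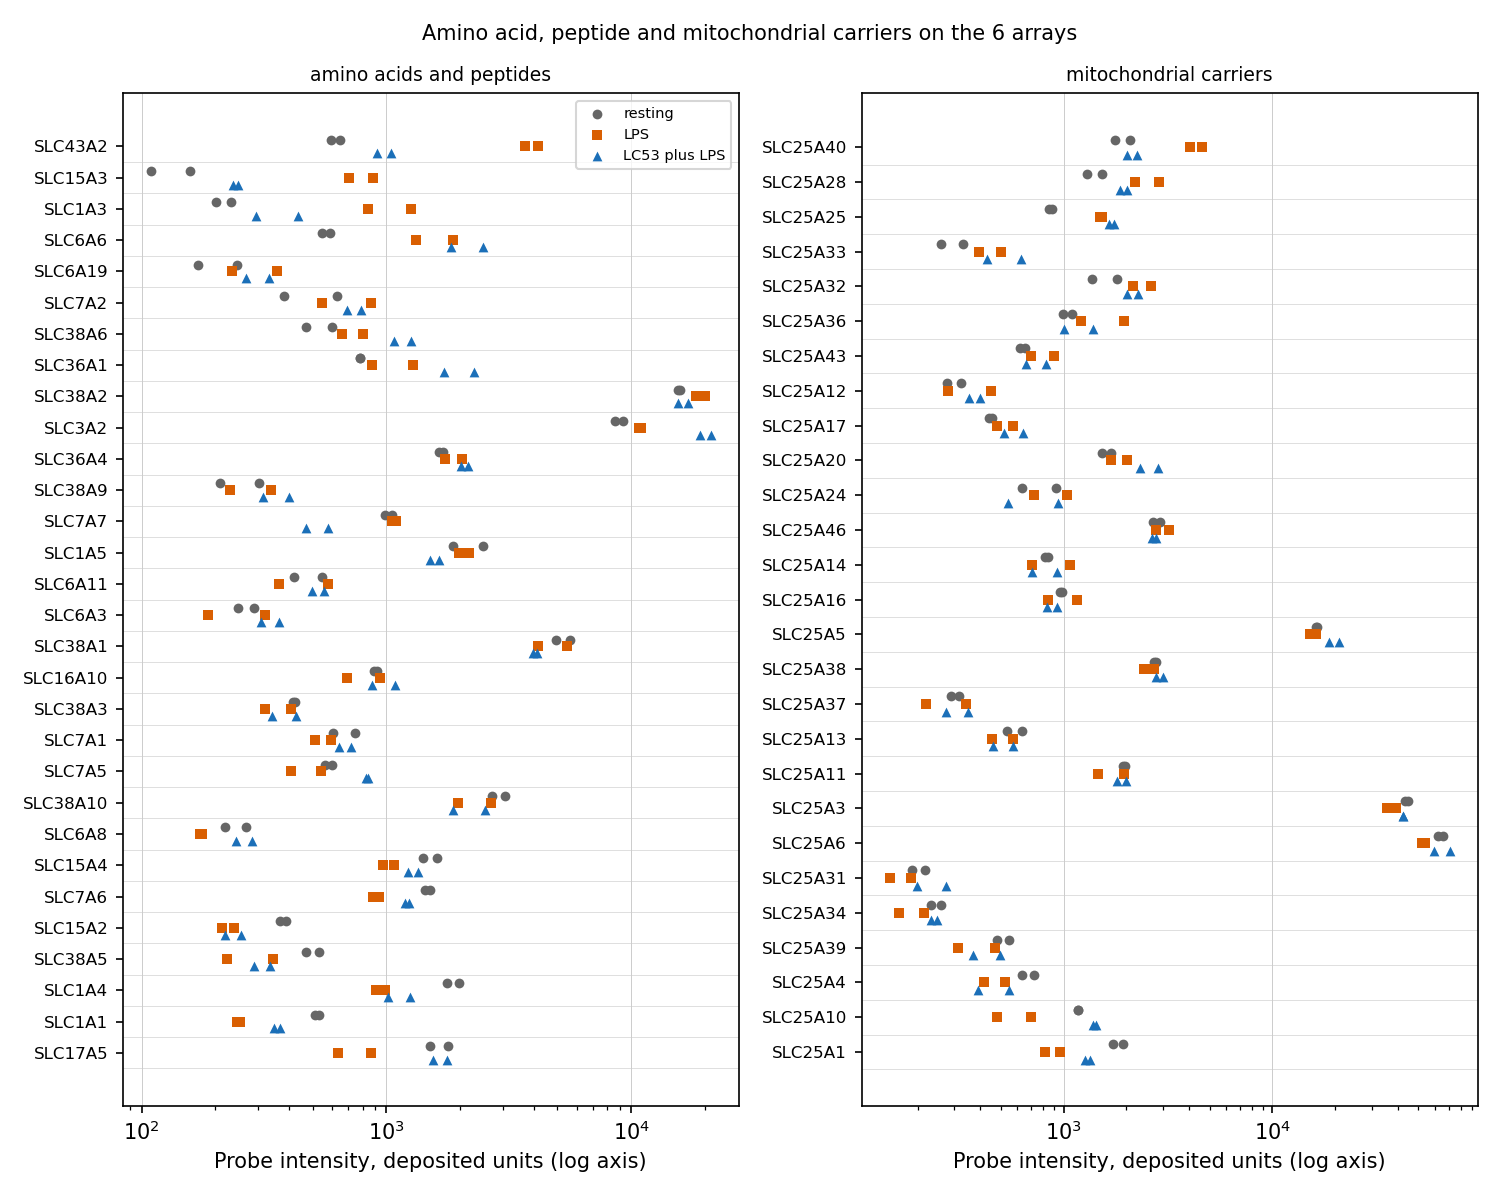
Probe intensity in deposited units (log axis) of the tested amino acid, peptide and mitochondrial carriers on each of the 6 arrays, ordered by the LPS minus resting difference. SLC43A2, SLC15A3 and SLC1A3 head the left panel, and most mitochondrial carriers on the right lie close together in all 3 groups.

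Several other amino acid carriers, from a panel named whatever its result, did not pass the test with LPS. SLC38A2, a sodium-coupled neutral amino acid importer, read 15500.1 and 15847 at rest, 18332 and 20109.9 with LPS, and 17063 and 15465 with LC53 plus LPS (LPS difference 0.29, adjusted p 0.460 in limma). SLC1A5, the glutamine exchanger ASCT2, read 1864 and 2479 at rest, 1983 and 2183 with LPS, and 1504 and 1640.3 with LC53 plus LPS. The log2 difference from rest was -0.05 for SLC1A5, -0.14 for the glutamine carrier SLC38A1, -0.28 for the arginine carrier SLC7A1 and -0.30 for the exchanger SLC7A5, with adjusted p from 0.521 to 0.951 in limma. SLC15A4, the lysosomal relative of SLC15A3, read 1407 and 1609.6 at rest and 968 and 1073 with LPS, which was not called (-0.56, adjusted p 0.171 in limma).

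With LC53 before LPS, the amino acid and peptide carriers SLC43A2 and SLC15A3 and the ion exchanger SLC8A1 were lower than with LPS alone, and the lysosomal SLC46A3 was higher. The question of this comparison is what the compound changes in stimulated cells. Of the 147 tested members, 1 was called higher (0.680%) and 3 lower (2.04%), against 1.22% and 2.89% of all genes with a mean of 200 or more. The LC53 plus LPS arrays lay above both LPS arrays for 55 of the 147 members and below them for 30 of the 147, against 35.1% and 21.9% of those genes. The median log2 difference was 0.17 over the members and 0.11 over those genes. The split of calls turned on the scaling: quantile normalization gave 18 higher and 13 lower, and cyclic loess 13 and 14.

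SLC43A2 was lower with LC53 plus LPS than with LPS by 2.0 ± 0.19 on the log2 scale (adjusted p 0.00968 in limma), a mean of 980.4 ± 89.4 (SD, n = 2) against 3923 ± 343 (SD, n = 2). SLC15A3 fell by 1.70 ± 0.25 on the same scale (adjusted p 0.0328 in limma), from a mean of 793 ± 129.8 (SD, n = 2) to 242 ± 9.04 (SD, n = 2). Both kept means above those of resting cells, by 0.66 and 0.88 on the log2 scale, with adjusted p of 0.158 and 0.162 in limma. SLC8A1, the plasma membrane sodium-calcium exchanger NCX1, read 632 and 531 at rest, 1103 and 1288 with LPS, and 369.6 and 292 with LC53 plus LPS. The groups did not overlap, with LC53 plus LPS lowest, and the difference from LPS was -1.86 ± 0.22 (adjusted p 0.0187 in limma). The other SLC8A1 probe, dimmer at averages of 172 at rest, 166 with LPS and 160 with LC53 plus LPS, read -0.10 with an adjusted p of 0.884. The 2 probes of SLC8A1 thus disagreed.

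SLC46A3 read 2127 and 2132 with LC53 plus LPS, above both LPS arrays and both resting arrays. Its difference from LPS was 1.40 ± 0.18 (adjusted p 0.0211 in limma), and from rest 0.11 (adjusted p 0.820). Its second probe moved alike, from a mean of 259.9 with LPS to 589.7 with LC53 plus LPS, by 1.19 with an adjusted p of 0.0456 in limma. The SLC43A2 call was lost without LC53 plus LPS replicate 1 or 2 (0.0702 and 0.0994). SLC46A3 was lost without either of those arrays (0.154 and 0.172) or either resting array (0.0946). SLC8A1 was lost without LC53 plus LPS replicate 1 or 2 (0.0848 and 0.140), LPS replicate 1 (0.0510) or either resting array (0.0576). SLC15A3 was lost without any 1 of the 6 arrays, with adjusted p from 0.0516 to 0.213.

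For the other members that moved with LPS, the LC53 comparison was not called on the values as deposited. SLC1A3 read -1.52 ± 0.30 between LC53 plus LPS and LPS (adjusted p 0.0674 in limma), SLC25A40 -1.02 (0.0651) and SLC31A2 -0.73 (0.142). SLC17A5 read 1.16 (adjusted p 0.0706) and NHERF1 0.84 (0.0978). SLC29A1 and SLC37A4 read 0.17 and 0.06, with adjusted p of 0.670 and 0.881, and SLC6A6 read 0.44 with 0.413. After cyclic loess, limma called SLC1A3 (adjusted p 0.0129), SLC25A40 (0.0135), SLC31A2 (0.0161), SLC17A5 (0.0098) and NHERF1 (0.0197), but not SLC29A1, SLC37A4 or SLC6A6. The members called then were also called after quantile normalization and with an offset of 50. SLC25A10, the mitochondrial dicarboxylate carrier, read 1170.1 and 1168 at rest, 480.2 and 700.0 with LPS, and 1431 and 1389 with LC53 plus LPS. Its LPS arrays lay below all others, with a difference of 1.28 for LC53 plus LPS against LPS (adjusted p 0.0567 in limma), and it is named after its values were seen.

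**Figure D4:**
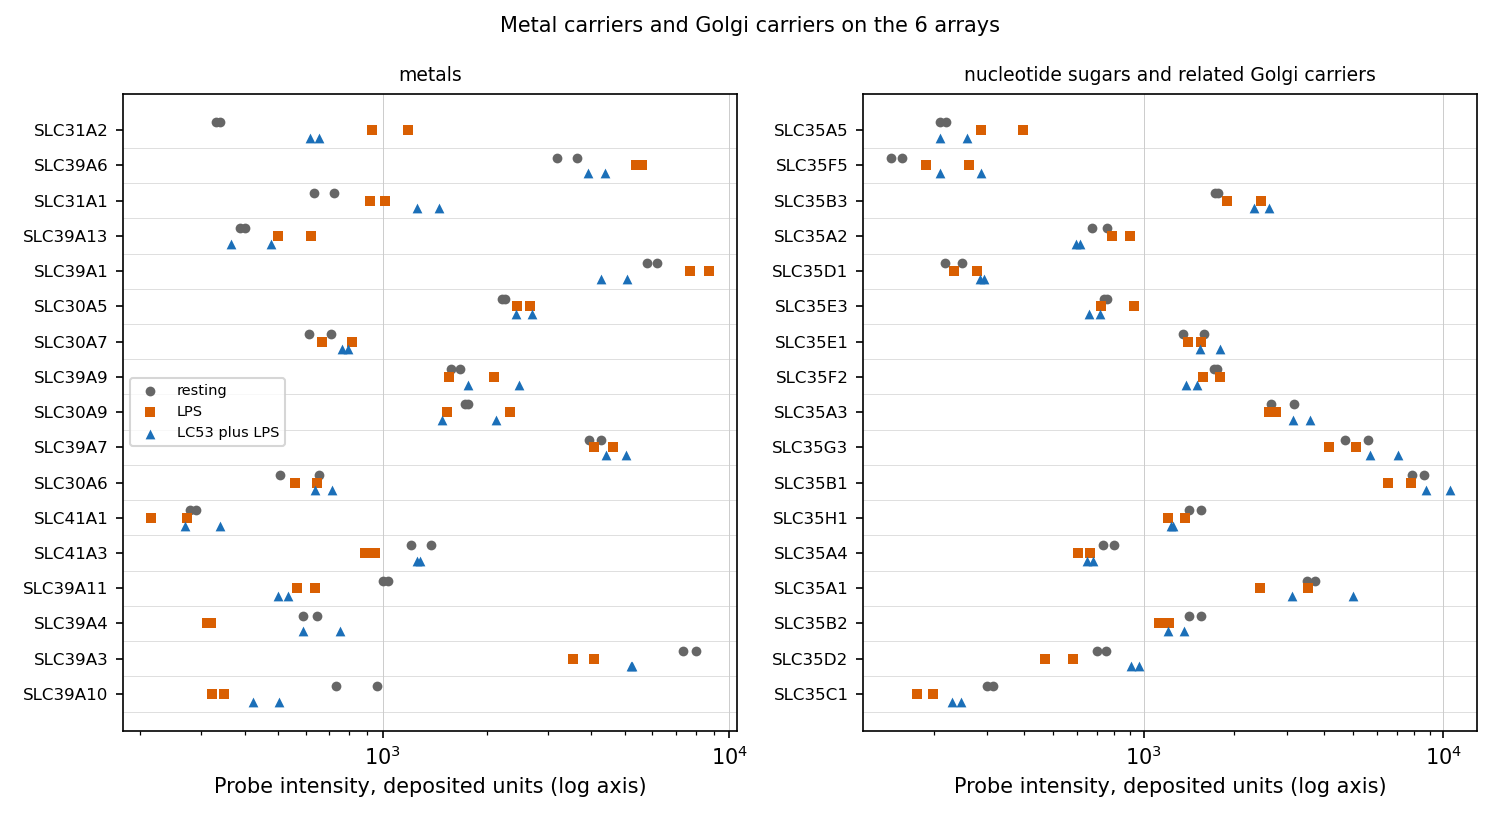
Probe intensity in deposited units (log axis) of the 17 metal carriers and 17 Golgi carriers on each of the 6 arrays, ordered by the LPS minus resting difference. SLC31A2 lies highest in LPS cells, SLC39A3 and SLC39A10 lie lowest there, and no Golgi carrier passed the test.

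Set against resting cells, LC53 plus LPS cells had more SLC6A6, SLC3A2 and SLC25A25 signal and less SLC27A3 and SLC17A9 signal. Of the 147 tested members, 3 were called higher (2.04%) and 2 lower (1.36%), against 3.14% and 2.11% of all genes with a mean of 200 or more. The arrays lay above rest for 54 of the 147 members and below it for 45 of the 147, against 38.2% and 28.2% of those genes. The median difference was 0.06 over both the members and those genes. This comparison shares its arrays with the other comparisons. The split of calls turned on the scaling here too: quantile normalization and cyclic loess each gave 12 higher and 23 lower, and median centring 6 and 16.

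SLC6A6 was 1.92 ± 0.26 above rest (adjusted p 0.0246 in limma). Its second brightest probe gave 0.72 with an adjusted p of 0.139 in limma. Its dim probe read 1.74, at averages of only 4.00 at rest and 13.4 with LC53 plus LPS. SLC3A2, the heavy chain that carries LAT1 and other exchangers to the surface, read 8565 and 9288 at rest, 10719 and 10997 with LPS, and 19020.5 and 21130.5 with LC53 plus LPS. The groups did not overlap and the difference from rest was 1.17 ± 0.18 (adjusted p 0.0344 in limma). Its light chain SLC7A5, the exchanger LAT1, read 559 and 597 at rest, 406 and 541 with LPS, and 824 and 839 with LC53 plus LPS, a difference from rest of 0.52 (adjusted p 0.304 in limma). SLC25A25, which carries ATP-magnesium and phosphate across the inner mitochondrial membrane, read 877 and 852 at rest, 1523 and 1495 with LPS, and 1658 and 1741 with LC53 plus LPS. Both stimulated groups lay above rest, and the difference of LC53 plus LPS was 0.97 ± 0.17 (adjusted p 0.0497 in limma).

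SLC27A3, an acyl-CoA synthetase of the fatty acid transport family, read 386 and 406 at rest, 261 and 355 with LPS, and 143 and 135 with LC53 plus LPS. The LC53 plus LPS arrays lay below all others, and the difference from rest was -1.51 ± 0.22 (adjusted p 0.0287 in limma). SLC17A9, the vesicular nucleotide carrier, read 929 and 1029 at rest, 581 and 655 with LPS, and 323 and 402 with LC53 plus LPS. The groups did not overlap, and the difference from rest was -1.44 ± 0.20 (adjusted p 0.0280 in limma). All 5 calls were lost without either resting array (adjusted p up to 0.412 and 0.418) and also when LC53 plus LPS replicate 1 or 2 was dropped (up to 0.276 and 0.294), and all 5 were kept without either LPS array.

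The 9 members whose mean over the 6 arrays was under 200 passed through their high group, and their values are given with no test. SLC43A1, a neutral amino acid carrier related to SLC43A2, read 236 and 286 at rest, 71.9 and 118 with LPS, and 131 and 89.3 with LC53 plus LPS. Resting cells lay above the overlapping stimulated groups, the reverse of SLC43A2. SLC27A2, a fatty acid family member, read 261 and 264 at rest, 105 and 133 with LPS, and 172 and 122 with LC53 plus LPS. SLC6A18 read 154 and 185 at rest, 93.7 and 162 with LPS, and 231 and 252 with LC53 plus LPS, and SLC37A1 read 129.9 and 126, 112 and 168, and 253 and 209.8 in the same order. Both were highest with LC53 plus LPS, without overlap. SLC25A44, a mitochondrial carrier of branched-chain amino acids, read 121 and 157 at rest, 182 and 258 with LPS, and 251 and 192 with LC53 plus LPS. The pseudogenes SLC25A3P1 and SLC26A10P, and SLC25A42, reached 200 only in means of 254, 214 and 201.

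The threshold itself fell in a narrow gap. The members just inside it had highest group means of 201 (SLC25A42), 209.7 (SLC22A10) and 214 (SLC26A10P), and the genes just outside it 196 (SLC38A7), 196 (SLC35B4) and 199 (SLC25A48). Some members owed their place to 1 array. SLC10A5, of the bile acid family, read 65.6 on LPS replicate 1 and 3089 on LPS replicate 2, and between 99.2 and 110.5 on the other 4 arrays. SLC25A3P1 read 179 and 328 with LC53 plus LPS, beside means of 179 at rest and 141 with LPS.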

How the data were processed

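RNA of THP-1 cells was measured on 6 single-colour arrays, 2 in each of 3 groups taken from the sample labels. Per the labels, amplified RNA carried Cy5 dye. The deposited values were linear probe intensity. Divided by 1 constant per array, all values came out whole (tolerance 0.02). How the authors scanned, background-corrected and normalized the arrays is not given in the sources used here, nor whether the groups share a scale. The labels did not say whether arrays came from separate cultures, so p-values measure only the spread between these arrays, and the number of arrays limits the precision.

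Intensities were floored at 1 before log2. A group-means model was fitted to all 31741 probes with limma 3.58.1 in R 4.3.3, and Benjamini-Hochberg values were called under 0.05 over all probes. Of the probes, 24658 had 1 symbol, 1002 had several and 6081 were unnamed. Symbols were updated through the RefSeq gene table, and 50 members had several probes. Values at or above 65500 whole-number units counted as saturated. The members, classes and lists were chosen with earlier results of these data known. Named genes were the called members with the largest differences, the 2 brightest probes of each class, dim members, those beside the threshold and a panel of carriers. Promoters were searched in Python 3.11.15. The fit was tested on simulated data. Alternatives were other normalizations, an offset of 50, dropping dim probes, fits on 2 groups, a replicate block, second probes, thresholds of 100 and 400, and leaving out arrays.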

Additional observations from a re-analysis of the deposited data

How the results depend on the processing

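With only 2 arrays a group, the counts of calls moved with most settings. No called value of the 26 pairs of gene and comparison changed sign under the alternatives run. Leaving out an array could not change a sign, as the groups of each called pair did not overlap. For LPS against resting, 17 members were called as deposited, 43 after cyclic loess, 28 after median centring, 43 after quantile normalization, 40 with an offset of 50, 37 without the dimmer probes and 6 in a fit of only the 2 groups, and 2 to 20 with 1 array left out. For LC53 plus LPS against LPS, the 4 became 27, 16, 31, 25, 20 and 1 in the same order, and 0 to 8 with 1 array left out. For LC53 plus LPS against resting, the 5 became 35, 22, 35, 29, 23 and 15, and 0 to 15. Thresholds of 100 and 400 gave 19 and 17, 4 and 4, and 7 and 4. Of the 16, 4 and 5 calls named by the rule, the fit of 2 groups kept 6, 1 and 5, and leaving out 1 array kept 2 to 12, 0 to 3 and 0 to 5. Median centring lost SLC1A4 (adjusted p 0.0568) and SLC25A25 (0.0686). A second SLC2A5 probe read 1.44 in LC53 plus LPS against resting (adjusted p 0.0444), opposite to -0.98 for the brightest probe, and the cause was not tested. Members given above as not called with LPS, but called after cyclic loess, included SLC22A16, SLC20A1, SLC25A28, SLC43A3 and SLC31A1. The causes of the changed counts with fewer arrays and of the higher counts after normalization were not tested.

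The labels do not say whether the replicate numbers pair the arrays across groups. The differences between replicates 2 and 1 correlated at 0.0581, 0.201 and -0.0769 between groups over all probes. Each group gives a single such difference per probe, so these values cannot decide the pairing. With the replicate block, the counts were 10, 2 and 1 members, and 10, 2 and 1 of the calls named by the rule were kept.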

Other observations

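Carriers that the platform lists under names not beginning with SLC and a number were looked at beside the members, from a list of 48, of which 24 had a mean of 200 or more over the 6 arrays. With LPS, 3 were called higher and 3 lower, beside 6.01% and 4.26% of all genes with a mean of 200 or more. With LC53 plus LPS, 1 was called lower against LPS and 1 against rest, and none higher. Of all those genes, 2.89% and 2.11% were called lower in these comparisons. FLVCR2, which carries choline and was first known as a heme carrier, read 284 and 284 at rest, 1417 and 1712 with LPS, and 317 and 291 with LC53 plus LPS. Its LPS arrays stood clear of the others, by 2.45 against rest (adjusted p 0.00224 in limma), and it was lower by 2.36 with LC53 than with LPS alone, the only call of the 24 there. MFSD2A, a carrier of lysophosphatidylcholine, read 24601 and 24132 at rest, 52917 and 55656 with LPS, and 30757 and 32519.8 with LC53 plus LPS. SLCO3A1 also rose, and SPNS3, SLCO4C1 and SLC75A1, listed on the platform as MFSD10, fell, by 1.70, 1.58 and 0.99 on the log2 scale.

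Several uncalled members had a second probe with another pattern, named after their values were seen. SLC7A2, a carrier of arginine and lysine, read 381 and 631 at rest, 545 and 868 with LPS, and 691 and 789 with LC53 plus LPS on its brightest probe. The LPS arrays overlapped those of both other groups, and the LC53 plus LPS arrays lay above both resting arrays. Its other probe averaged 177.6, 706 and 166 in the same order of groups. The second probe of SLC16A10, an aromatic amino acid carrier, averaged 70.0, 166 and 61.1, and that of SLC35D1 63.5, 212 and 118.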
